A study of Salmo salar with 54 samples.

Results

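The gene described here was ddit3, which encodes CHOP, a transcription factor of the cellular stress response. Its values were GeneID:106566144's row of the deposited table, 1 gene of 18901, read in all 54 libraries. The reference table used for names gave the symbol ddit3 to 1 gene. Symbols were available for 6224 of the 18901 genes, so a second copy of ddit3 without a symbol would not have been found by name. Primary hepatocytes (freshly isolated liver cells) came from 6 male Atlantic salmon of 447 to 572 g by collagenase perfusion of the liver. They were grown on laminin-coated Alvetex scaffolds, a 3-dimensional support, in L-15 medium with 10% foetal bovine serum at 10 °C. After 36 to 40 h of pre-culture the cells were exposed for 48 h. Cells of each fish received inorganic arsenite (AsIII) at 0.1, 1 or 3 µM on plates with their own AsIII control. They also received an arsenosugar with a glycerol side group (AsSug), an organic form of arsenic found in seaweed, at 5, 10, 50 or 250 µM on separate plates with their own AsSug control. Each of the 9 groups held 6 libraries, 1 per fish, so every group mean, SD and fold below has n = 6 fish. The cells were unmodified, no genotype was named, and the groups shared the medium, the scaffold and the pre-culture.

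CHOP belongs to the C/EBP family and works mainly as a dimer with other C/EBP factors or with ATF4. In mammals, 4 kinases put a phosphate on the translation factor eIF2α: PERK (eif2ak3) in response to unfolded protein in the endoplasmic reticulum (ER), HRI (eif2ak1) to haem shortage and to arsenite, GCN2 to amino acid shortage and PKR (eif2ak2) to double-stranded RNA. This slows protein synthesis in general while translation of ATF4 rises, and ATF4 then switches on ddit3 and genes of amino acid supply. Lasting CHOP activity is known in mammals for its part in cell death under ER stress, and in liver for its rise under toxic and lipid load.

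The libraries outside 250 µM AsSug held 8.79 to 24.0 M reads in the measured genes, of which 227 to 3025 were ddit3 reads. The 6 libraries at 250 µM AsSug held 0.898 to 5.38 M, of which 30 to 369 were ddit3 reads. RNA integrity was described as good for 48 libraries, and the labels set the 250 µM AsSug RNA apart. In the column names the 250 µM libraries also form a series of their own, so concentration, RNA integrity, depth and library series cannot be told apart in that group. All AsIII libraries form another series, apart from that of the AsSug control and the 5, 10 and 50 µM libraries. Compound, plates and library series therefore cannot be told apart between AsIII and AsSug groups. By summed level, which depends on the number and choice of genes, hepatocyte markers exceeded those of other cell types. The sum of 12 such genes had a median of 842968 normalised reads in unexposed cells of the AsIII plates and 845650 in those of the AsSug plates. The corresponding sums were 201 and 221 for 3 endothelial genes, 449 and 527 for 4 stellate or fibroblast genes, 3048 and 2917 for 3 macrophage or granulocyte genes, and 3148 and 2930 for 2 cholangiocyte genes. The single erythrocyte gene measured had medians of 348 and 280. By symbol 0 of 6 lymphocyte markers were found, and 0 of the marker genes were without reads in all libraries of a group. Most of the hepatocyte sum was tfa, hpxa, fgg and apoa2 (means of 286424, 186014, 153275 and 101991 in the AsIII controls). The hepatocyte marker cps1 had a mean of 28.3 there, below cd68 (2903) and anxa4 (3140) of other cell types. The share of each cell type was not measured.

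Unexposed cells expressed ddit3 at a moderate level on both kinds of plate. In the AsIII controls the lowest, median and highest fish had 261, 352 and 399 normalised reads (reads divided by the size factor of the library), and the mean was 350 ± 50.4 (SD). In the AsSug controls the lowest, median and highest were 249, 349 and 467, and the mean was 355 ± 74.3 (SD). The control groups overlapped. The AsIII control stood at -0.01 ± 0.08 (SE) on the log2 scale against the AsSug control (limma adjusted p = 0.986; 95% interval -0.16 to 0.15), and 0.0588% of the 18712 genes tested were called in either direction in that comparison. A gene was called where the limma p, adjusted over all genes tested by the Benjamini-Hochberg method, was below 0.05. As CPM (recovered reads scaled to the library total), the AsIII controls had 31.6 ± 4.75 and the AsSug controls 32.3 ± 6.39 (SD).

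**Figure D1:**
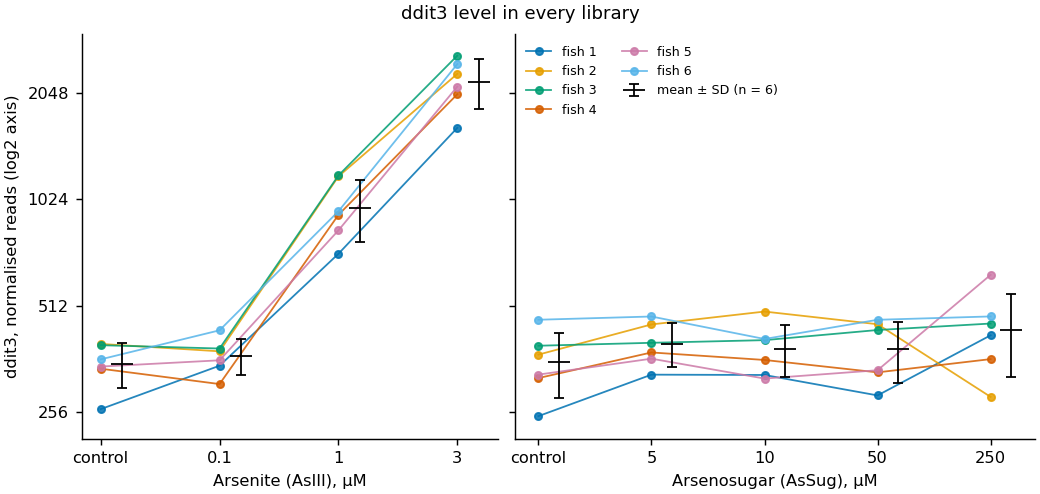
Normalised reads of ddit3 (log2 axis) in each of the 54 libraries, with 1 line per fish and the group mean ± SD (n = 6 fish) in black, for arsenite on the left and arsenosugar on the right. All 6 lines rise from 0.1 to 1 µM and from 1 to 3 µM arsenite, where the mean reaches 2199, while the arsenosugar groups stay between 249 and 625.

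ddit3 was higher at 1 and 3 µM arsenite in 6 of 6 fish, and a difference at 0.1 µM was not detected. At 0.1 µM the lowest, median and highest fish had 307, 369 and 436 normalised reads (mean 369 ± 43.3, SD). These libraries overlapped the controls, with 3 fish higher than their own control and 3 lower. The fitted change was 0.08 ± 0.08 (SE) on the log2 scale (limma adjusted p = 0.755), with a 95% interval from -0.09 to 0.25, and 0.0106% of genes were called at this concentration.

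At 1 µM the lowest, median and highest fish had 718, 936 and 1195 normalised reads (mean 968 ± 191, SD). Every library lay above the highest control of 399, a separation seen in 20.9% of the 18899 genes tested. The fitted rise was 2.74-fold, 1.46 ± 0.08 (SE) on the log2 scale (limma adjusted p = 2.57e-12), and folds within a fish ran from 2.42 in fish 5 to 3.02 in fish 3. Calls were common in this comparison: 57% of genes were called in either direction, 29.8% higher and 27.3% lower. By the size of the rise ddit3 ranked 599 of the 18899 genes.

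At 3 µM the lowest, median and highest fish had 1630, 2226 and 2610 normalised reads (mean 2199 ± 350, SD). Again no library overlapped the controls, as for 28.3% of genes. The fitted rise was 6.26-fold, 2.65 ± 0.08 (SE) on the log2 scale (limma adjusted p = 2.97e-17), where 71.1% of genes were called in either direction, 36% higher and 35.1% lower. Folds within a fish lay close together, from 5.80 in fish 2 to 6.83 in fish 6, and ddit3 ranked 378 of 18899 by the size of its rise. An exact sign-flip test over the 6 fish gave p = 0.0312 (two-sided) at 1 and at 3 µM, which is the smallest value that 6 fish allow. As CPM ddit3 went from 31.6 ± 4.75 in the controls to 92.1 ± 18.9 at 1 µM and 183 ± 29.2 at 3 µM (SD).

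The step from 1 to 3 µM also raised ddit3, by 1.19 ± 0.08 (SE) on the log2 scale or 2.28-fold (limma adjusted p = 1.19e-10). Fold changes within a fish over this step were 1.95 in fish 2 and 2.61 in fish 6 at the extremes, and the lowest library at 3 µM (1630) exceeded the highest at 1 µM (1195). In this comparison 52.2% of genes were called in either direction, 27.8% higher and 24.4% lower, and 18% were separated upward without overlap. Between 0.1 and 1 µM the rise was 1.37 ± 0.08 (SE) on the log2 scale, 2.59-fold (limma adjusted p = 6.85e-12), with 60.5% of genes called in either direction and 16.4% separated upward without overlap, as ddit3 was. Scaling by library totals moved the median change of all genes at 3 µM from -0.02 to -0.14 and the ddit3 change from 2.65 to 2.53. Such a scaling shifts every gene alike.

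**Figure D2:**
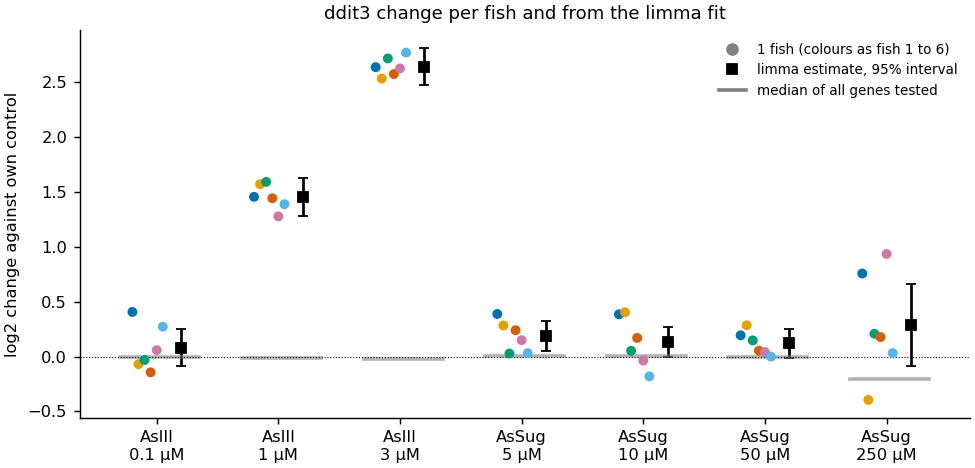
log2 change of ddit3 against the control of the same plates, as 1 coloured point per fish, beside the limma estimate with its 95% interval (black square) and the median change of all genes tested (grey bar). The arsenite points lie between 1.28 and 1.59 at 1 µM and between 2.54 and 2.77 at 3 µM, and those for 250 µM arsenosugar spread from -0.40 to 0.94.

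ddit3 did not pass the limma test at any of the 4 arsenosugar concentrations. At 5 µM the lowest, median and highest fish had 326, 389 and 477 normalised reads (mean 400 ± 56.7, SD). The groups overlapped, although each of the 6 fish was higher than its own control, by 1.02-fold in fish 3 to 1.31-fold in fish 1. The fitted change was 0.19 ± 0.07 (SE) on the log2 scale, with an unadjusted limma p of 0.00782 and an adjusted p of 0.463, and the exact sign-flip test over 6 fish gave p = 0.0312, the smallest it can give. At this concentration 0.106% of genes were called, and 1323 of 18818 had an unadjusted limma p below 0.05. By the size of the rise ddit3 ranked 1454.

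At 10 µM the lowest, median and highest fish had 318, 384 and 492 normalised reads (mean 386 ± 65.5, SD), with 4 of 6 fish above their control. The change of 0.13 ± 0.07 (SE) on the log2 scale had a limma adjusted p of 0.853 where 0.0159% of genes were called. At 50 µM the lowest, median and highest were 285, 386 and 467 (mean 385 ± 76.6, SD), with 5 of 6 fish above their control and fish 6 at 1.00-fold. The change of 0.12 ± 0.07 (SE) on the log2 scale had a limma adjusted p of 0.531 where 0.563% of genes were called. The 95% intervals of the log2 changes were 0.05 to 0.32 at 5 µM, 0.00 to 0.27 at 10 µM and -0.01 to 0.25 at 50 µM. The 5, 10 and 50 µM groups shared their 6 control libraries, so that their 3 changes are not independent measurements.

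At 250 µM AsSug the ddit3 values had the largest coefficient of variation of the 9 groups, 26.5% against 11.75% to 20.96% in the other 8. The lowest, median and highest fish had 282, 439 and 625 normalised reads (mean 437 ± 116, SD). Fish 5 rose 1.91-fold and fish 1 rose 1.69-fold against their own controls, fish 3, 4 and 6 were at 1.16-, 1.13- and 1.02-fold, and fish 2 was at 0.76-fold. The value of fish 2 rests on 30 reads, for which the exact 95% Poisson interval of counting is 190 to 403 normalised reads. How much of the larger variation in this group came from counting error was not tested. The fitted change of 0.29 ± 0.18 (SE) on the log2 scale was not called (limma adjusted p = 0.168; 95% interval -0.09 to 0.66), although 63.2% of genes were called in either direction, 26.7% higher and 36.5% lower.

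At 250 µM ddit3 stayed uncalled under 14 of 15 alternatives, while the size of its change varied with the scaling and the fish left out. Without fish 5 the change was 0.16 on the log2 scale (limma adjusted p = 0.467), and without fish 2 it was 0.42 (adjusted p = 0.0544). With the scaling used here the median of all genes stood at -0.20, and ddit3 was 0.49 above it. Under scaling by library totals the all-gene median moved to 0.09, and ddit3 stood at 0.59 and was called (limma adjusted p = 0.0102). Under scaling by TMM factors (trimmed mean of M-values) ddit3 stood at 0.39 and was not called (limma adjusted p = 0.0722). The 12 hepatocyte markers at 250 µM had a summed level with a median of 392450 normalised reads, ranging from 252553 to 765077, against 845650 in the controls, while of the 12 genes 3 were called higher and 7 lower. The erythrocyte gene rhag rose by 0.96 ± 0.16, 3 of 4 stellate or fibroblast genes and 2 of 3 macrophage or granulocyte genes were lower. The summed endothelial markers had a median of 313 normalised reads against 221 in the controls, with 1 of the 3 genes higher and 1 lower. The part of these markers in the ddit3 value was not tested, and in such bulk libraries fewer cells of a type and less RNA per cell cannot be told apart.

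Set in order of the mean level, the 9 groups ran from the AsIII control (350) through the AsSug control (355), 0.1 µM AsIII (369), 50 µM AsSug (385), 10 µM AsSug (386), 5 µM AsSug (400) and 250 µM AsSug (437) to 1 µM AsIII (968) and 3 µM AsIII (2199). Of the 8 neighbouring pairs in this order, the last 2 did not overlap and were higher in 6 of 6 fish, and the other 6 overlapped. Pairs of an AsIII with an AsSug group also differ in plates and library series, and pairs with 250 µM AsSug in library series. The exact sign-flip test gave p = 0.0312 for each of the last 2 pairs, and 0.125 after adjustment over the 8 pairs, so that no neighbouring pair could pass at this number of fish unless more pairs reached the smallest p. The other 6 pairs had adjusted exact p from 0.792 to 1.0. Arsenite and arsenosugar were not given at a shared concentration, so their changes stand side by side only. On the log2 scale they were 1.46 and 2.65 at 1 and 3 µM arsenite. For arsenosugar they were 0.19, 0.13, 0.12 and 0.29 at 5, 10, 50 and 250 µM.

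Several fish kept a similar place in the ddit3 ranking in most groups, which was not compared with the rankings of other genes. Fish 1 had the lowest ddit3 level in 6 of the 9 groups, with a mean rank of 1.44 among 6. Fish 6 was among the 2 highest in 7 of the 9 groups, with a mean rank of 5.22. Fish 3 and fish 2 had mean ranks of 4.78 and 4.44, fish 5 of 2.89 and fish 4 of 2.22. Fish 2 was among the 2 highest in 5 groups but lowest at 250 µM AsSug. Fish 5 was lowest at 10 µM AsSug and highest at 250 µM AsSug. The low absolute level of fish 1 did not come with a low fold: at 3 µM arsenite it rose from 261 to 1630 normalised reads, or 6.23-fold, beside 6.83-fold in fish 6, which rose from 361 to 2471. At 1 µM arsenite the highest levels were in fish 3 (1195) and fish 2 (1188), and the lowest was in fish 1 (718).

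Genes of the pathway around CHOP were counted from lists of 68 measured genes in 7 groups: stress sensors, transcription factors, ATF4 or CHOP targets, amino acid and tRNA charging genes, ER chaperones, ER-associated degradation, and the BCL2 family with caspases. The lists are partial, as genes were matched by symbol. Found were 9 of 11 listed sensor symbols, 9 of 13 factors, 7 of 15 targets and 15 of 29 amino acid and tRNA charging genes. For ER chaperones 8 of 17 were found, for ER-associated degradation 7 of 14, and for the BCL2 family and caspases 6 of 17. hspa5, trib3 and ppp1r15a were among those not found, so the counts do not cover them. At 0.1 µM arsenite and at 5, 10 and 50 µM arsenosugar 0 of the 68 were called. At 1 µM arsenite 28 rose (41.2%) and 14 fell (20.6%), beside 29.8% and 27.3% of all genes, and 6 of the 68 had a larger rise than ddit3. At 3 µM arsenite 36 rose (52.9%) and 13 fell (19.1%), beside 36% and 35.1% of all genes, and 3 had a larger rise than ddit3. The per-list counts below stand against the same shares of all genes. The median change of all genes was -0.01 at 1 µM and -0.02 at 3 µM. Hepatocyte markers moved beside these counts, with 9 of 12 lower at 1 µM and 8 of 12 lower at 3 µM, and the summed stellate or fibroblast markers went from a median of 449 normalised reads to 1320 and 1897. Most of that sum was timp2 (mean 354 in the controls, 1152 and 1796), whereas fn1a had means of 71.8, 117 and 25.6, and 2 of the 4 genes were higher and 1 lower at 3 µM. The summed endothelial markers went from a median of 201 to 284 and 458. Most of this sum was esamb (mean 172 in the controls, 267 and 452), whereas kdr had means of 14.7, 9.07 and 5.69. Of the 3 endothelial genes 1 was higher and 1 lower at 3 µM. The summed macrophage or granulocyte markers went from a median of 3048 to 2233 and 1681. Most of this sum was cd68 (mean 2903 in the controls, 2134 and 1638), whereas 2 of the 3 genes were higher and 1 lower at 3 µM. The summed cholangiocyte markers had medians of 3148, 2525 and 3217, and the erythrocyte gene rhag of 348, 218 and 249. The part of these markers in the pathway counts was not tested.

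Upstream of CHOP, the sensors moved in both directions. Of 9 measured, 2 rose and 2 fell at 1 µM arsenite (list median 0.12; 4 and 2 with library totals), where 29.8% of all genes rose and 27.3% fell. At 3 µM 5 rose and 2 fell (list median 0.42). The gene of PERK, eif2ak3, was not called at 1 µM (-0.18 ± 0.12 on the log2 scale, limma adjusted p = 0.224; -0.28 without fish 1, adjusted p = 0.0314) and rose by 0.78 ± 0.12 at 3 µM. The gene of HRI, eif2ak1, rose by 0.52 ± 0.15 at 1 µM. Its means were 80.3, 116 and 109 normalised reads in the AsIII controls and at 1 and 3 µM. Between 1 and 3 µM eif2ak1 changed by -0.09 ± 0.15 and was not called (limma adjusted p = 0.638). eif2s1a, one of the genes of eIF2α itself, rose by 0.76 ± 0.12 and 1.03 ± 0.12. Of the IRE1 genes, ern1 fell by 0.86 ± 0.09 and 1.10 ± 0.09, while ern2 was not called at 1 µM (-0.21 ± 0.16, limma adjusted p = 0.254; 0.0297 without fish 1) and rose by 0.90 ± 0.16 at 3 µM. mbtps1, a protease gene that acts on ATF6 in mammals, fell by 0.53 ± 0.09 and 1.47 ± 0.09 (log2 changes ± SE at 1 and 3 µM). These are transcript levels, and phosphorylation of eIF2α was not measured.

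Among 12 transcription factor genes, 4 rose and 3 fell at 1 µM arsenite (list median 0.18; 6 and 3 with library totals), shares close to the 29.8% and 27.3% of all genes. At 3 µM 7 rose and 2 fell (0.36), where 36% and 35.1% of all genes did. atf4, the direct activator of ddit3 in mammals, had a lowest, median and highest level of 471, 638 and 732 normalised reads in the AsIII controls. It had 1035, 1269 and 1477 at 1 µM and 1190, 1385 and 1399 at 3 µM, so that both exposed groups lay above the controls and overlapped each other. atf4 rose by 1.03 ± 0.10 at 1 µM and 1.14 ± 0.10 at 3 µM on the log2 scale (limma adjusted p = 2.35e-08 and 1.65e-09). From 1 to 3 µM, where ddit3 rose by 1.19 ± 0.08, atf4 changed by 0.11 ± 0.10 and was not called (limma adjusted p = 0.374).

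The ATF4 relatives atf5a and atf5b rose by 1.65 ± 0.12 and 0.95 ± 0.12 at 1 µM, and by 1.42 ± 0.12 and 1.70 ± 0.12 at 3 µM. atf3, a stress factor that also lies downstream of ATF4 in mammals, rose by 1.07 ± 0.13 at 1 µM and 0.66 ± 0.13 at 3 µM, and the fall of 0.41 ± 0.13 between these concentrations was called (limma adjusted p = 0.0128), a call lost without fish 3 (adjusted p = 0.0607) and without fish as a term (adjusted p = 0.0502). xbp1, the factor made active by IRE1 splicing, followed another course. Its lowest, median and highest levels were 2302, 2494 and 2946 normalised reads in the controls, 2489, 2794 and 3413 at 1 µM and 9823, 10862 and 12241 at 3 µM. The change at 1 µM was 0.19 ± 0.09 (limma adjusted p = 0.0961, but 0.0151 with library totals, 0.0343 without fish 1 and 0.03 without fish 5) and that at 3 µM was 2.10 ± 0.09, a rise of 1.92 ± 0.09 between them, while the counts do not separate spliced from unspliced xbp1. Of the C/EBP partners, cebpa fell by 0.89 ± 0.09 at 1 µM and was 0.31 ± 0.09 above control at 3 µM. The other C/EBP genes measured took other courses. In the AsIII controls and at 1 and 3 µM cebpb had means of 1374, 1570 and 1323 normalised reads, and cebpd of 508, 449 and 351.

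**Figure D3:**
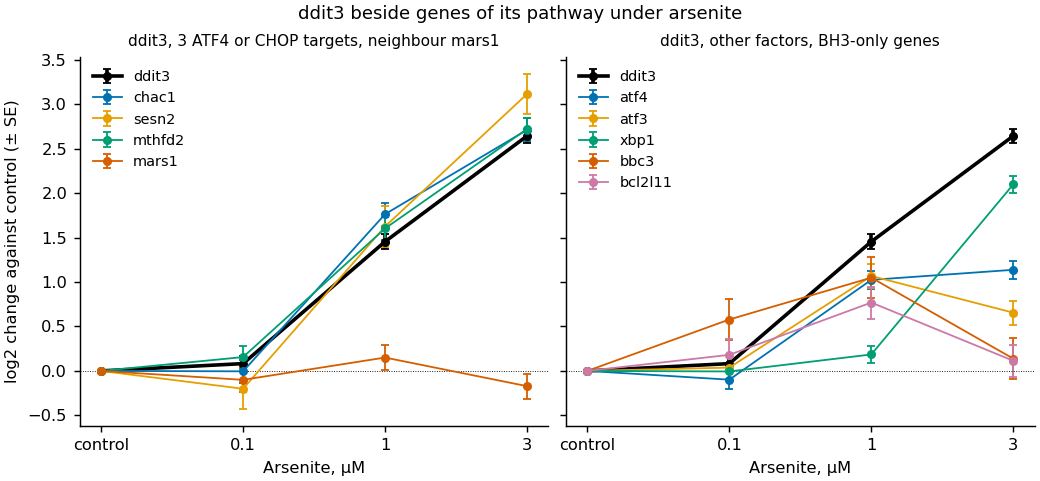
log2 change against the AsIII control (± SE of the limma fit, n = 6 fish) over the arsenite concentrations for ddit3 (thick black line) and 9 other genes. chac1, sesn2 and mthfd2 climb with ddit3 to between 2.71 and 3.12 at 3 µM, and atf4 levels off near 1.14. xbp1 is at 0.19 at 1 µM, where its call depends on the setting, and at 2.10 at 3 µM. bbc3 and bcl2l11 are called at 1 µM and not at 3 µM. The measured targets ppp1r15b, ero1a and ndrg1a are not drawn, and the median change of the 7 targets at 3 µM was 0.35.

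Downstream of ATF4 and CHOP, 5 of 7 target genes rose and 0 fell at 1 µM arsenite (list median 0.88), and 3 rose and 0 fell at 3 µM (list median 0.35). Over all genes 29.8% rose at 1 µM and 36% at 3 µM. The targets ero1a and ndrg1a were called at neither concentration. In the AsIII controls and at 1 and 3 µM ero1a had means of 464, 507 and 572 normalised reads, and ndrg1a of 1485, 1128 and 1485. chac1, whose enzyme degrades glutathione, went from a median of 1234 normalised reads (range 773 to 1261) in the controls to 3661 (2601 to 5397) at 1 µM and 7253 (5478 to 8967) at 3 µM. Its rises of 1.76 ± 0.13 and 2.71 ± 0.13 on the log2 scale lay near those of ddit3. sesn2, a stress-induced brake on growth signalling, rose by 1.63 ± 0.23 and 3.12 ± 0.23. ppp1r15b, whose product helps remove the phosphate from eIF2α, rose by 0.88 ± 0.12 and 1.26 ± 0.12.

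The pro-apoptotic BH3-only genes bbc3 (PUMA) and bcl2l11 (BIM), which CHOP can raise in mammals, took a different course from ddit3. bbc3 rose by 1.05 ± 0.23 at 1 µM (limma adjusted p = 0.000498), had a change of 0.14 ± 0.23 at 3 µM (adjusted p = 0.603) and fell by 0.91 ± 0.23 between 1 and 3 µM (adjusted p = 0.00202). bcl2l11 rose by 0.77 ± 0.18 at 1 µM (adjusted p = 0.000968), had a change of 0.11 ± 0.18 at 3 µM (adjusted p = 0.585) and fell by 0.66 ± 0.18 between them (adjusted p = 0.00417). Over the same step ddit3 rose 2.28-fold. In the list of other BCL2 family and caspase genes, 3 of 8 rose and 3 fell at 1 µM (list median -0.11), and 4 rose and 3 fell at 3 µM (0.11). bada, a BH3-only gene, rose by 1.69 ± 0.11 and 2.40 ± 0.11, and the survival gene bcl2l1 by 0.65 ± 0.10 and 1.37 ± 0.10. The other bad gene measured, badb, had means of 802 normalised reads in the AsIII controls, 821 at 1 µM and 1669 at 3 µM. The executioner caspase gene casp3a fell by 0.83 ± 0.22 and 2.69 ± 0.22, and the pore-forming baxb by 0.92 ± 0.16 and 1.34 ± 0.16.

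Genes of amino acid supply and tRNA charging, an ATF4 programme in mammals, rose in 11 of 16 members and fell in 1 at 1 µM arsenite (list median 0.54), and rose in 12 and fell in 0 at 3 µM (0.66). Over all genes 29.8% rose and 27.3% fell at 1 µM, and 36% and 35.1% at 3 µM. mthfd2, a mitochondrial one-carbon enzyme gene, rose by 1.60 ± 0.13 and 2.72 ± 0.13. slc3a2b, for a subunit of amino acid transporters, rose by 1.14 ± 0.21 and 2.04 ± 0.21. The other slc3a2 gene measured, slc3a2a, did not follow it, with means of 1447 normalised reads in the AsIII controls, 892 at 1 µM and 1248 at 3 µM. got1, an aspartate aminotransferase gene, rose by 0.94 ± 0.10 and 2.17 ± 0.10, and the alanine tRNA synthetase gene aars1 by 0.92 ± 0.12 and 1.20 ± 0.12. Of 9 ER chaperone and folding genes, 3 rose and 1 fell at 1 µM (list median -0.07), a share of rises near that of all genes, and 5 rose and 0 fell at 3 µM (0.44). sdf2l1, a cofactor gene of the ER chaperone system, rose by 0.48 ± 0.15 and 1.66 ± 0.15. dnajc3b, for a co-chaperone that restrains eIF2α kinases in mammals, rose by 0.78 ± 0.08 and 0.64 ± 0.08. The other dnajc3 gene measured, dnajc3a, had means of 145 normalised reads in the AsIII controls, 148 at 1 µM and 212 at 3 µM. Of 7 genes of ER-associated degradation, 0 rose and 4 fell at 1 µM (list median -0.40), and 0 rose and 6 fell at 3 µM (-0.57), among them sel1l (-0.99 ± 0.10 at each concentration) and amfra (-0.62 ± 0.18 and -1.33 ± 0.18).

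**Figure D4:**
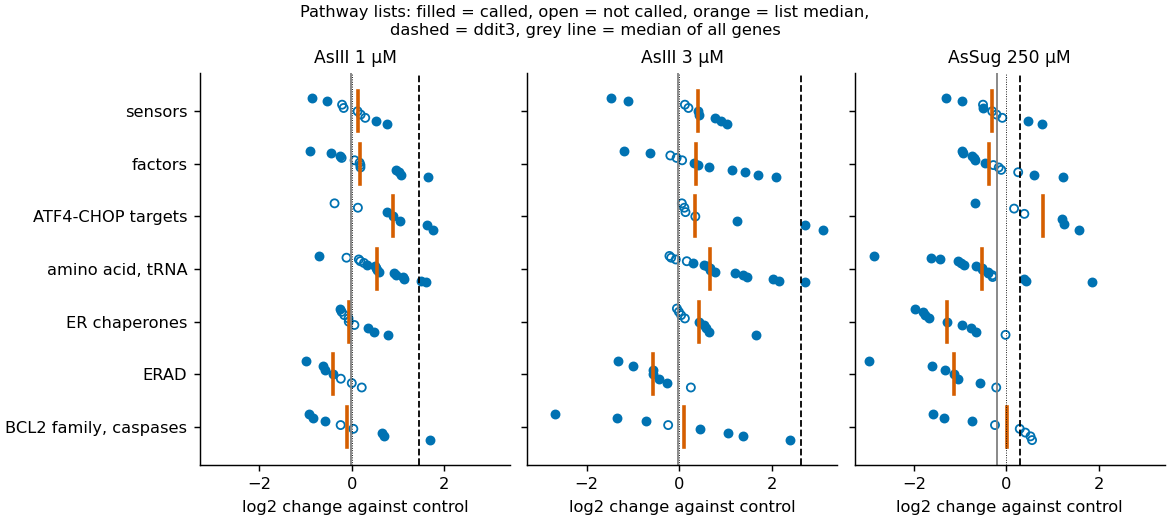
log2 change against control of each tested pathway gene, by list, at 1 and 3 µM arsenite and 250 µM arsenosugar, with filled points for called genes, the list median in orange, the median of all genes in grey and ddit3 as the dashed line. Under arsenite ddit3 lies to the right of all but 6 genes at 1 µM and all but 3 at 3 µM, and at 250 µM arsenosugar 10 of 67 genes were higher and 37 lower.

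At 250 µM arsenosugar 10 of 67 tested pathway genes were higher (14.9%) and 37 were lower (55.2%), beside 26.7% and 36.5% of all genes, with 15 showing a larger rise than ddit3. Among the factors 2 of 12 were higher and 6 lower (list median -0.38): atf4 fell by 0.75 ± 0.18 and xbp1 by 0.96 ± 0.13, whereas atf3 rose by 0.60 ± 0.17 and cebpd by 1.23 ± 0.18. Sensors split 2 higher and 3 lower of 9 (list median -0.31), with eif2ak1 0.77 ± 0.21 higher. Of 6 tested targets 3 were higher and 1 lower (list median 0.80), namely bbc3 (1.24 ± 0.28), bcl2l11 (1.20 ± 0.31) and the stress gene ndrg1a (1.56 ± 0.19), while chac1 was at 0.17 ± 0.17 (limma adjusted p = 0.389) and sesn2 did not reach the level needed for testing. ER chaperones were lower in 8 of 9 and higher in 0 (list median -1.28), including canx (-1.98 ± 0.20) and pdia3 (-1.80 ± 0.20), and ER-associated degradation genes were lower in 6 of 7 and higher in 0 (-1.13). Amino acid genes split 3 higher and 10 lower of 16 (list median -0.52), and the BCL2 family and caspases 0 higher and 3 lower of 8 (0.02). With library totals the lower counts were 4 of 12 factors, 7 of 9 chaperones, 5 of 7 degradation genes and 6 of 16 amino acid genes, and the higher count of the BCL2 family and caspases became 3. The targets became 5 higher and 0 lower of 6 (list median 1.10). These list medians stand against a median of all genes of -0.20, and the depth, RNA integrity and marker values given above for this group apply to each of them.

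In the RefSeq annotation of Ssal_v3.1, ddit3 lies between mars1, for the methionine tRNA synthetase, and dctn2, for a dynactin subunit, and neither overlaps it. mars1 had medians of 475, 546 and 423 normalised reads in the AsIII controls and at 1 and 3 µM, with changes of 0.15 ± 0.14 and -0.17 ± 0.14 on the log2 scale that were not called (limma adjusted p = 0.374 and 0.281). A fit of only the groups compared called both (adjusted p = 0.0469 and 0.0249) at the same sizes, and leaving out fish 1 called the fall at 3 µM (adjusted p = 0.0175). dctn2 rose by 0.41 ± 0.07 and 0.55 ± 0.07, from a median of 686 normalised reads to 932 and 1044.

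Among genes with a symbol and a mean of at least 50 normalised reads, the 5 whose 7 changes against control lay nearest to those of ddit3 were mesd1, chac1, fbxo32, ahsa1a and pbrm1l. Likeness was measured as the root mean square difference between the 7 log2 changes, and over 14161 genes compared its median was 1.24. It was 0.10 for mesd1, which encodes an ER chaperone of lipoprotein receptors, and 0.16 for chac1. It was 0.18 for fbxo32, a ubiquitin ligase gene, 0.18 for ahsa1a, for the activator of HSP90, and 0.20 for pbrm1l. Their rises were 1.34 to 1.76 at 1 µM and 2.54 to 2.98 at 3 µM arsenite, beside 1.46 and 2.65 for ddit3. In all 49 genes lay within 0.25, of which 12 had a symbol. As the changes at 1 and 3 µM share their controls and are the largest of the 7, they weigh most in this measure. Of the other pathway genes slc3a2b (0.28), mthfd2 (0.37) and atf5b (0.50) came next to chac1, and atf4 stood at 0.72 and xbp1 at 0.71.

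**Figure D5:**
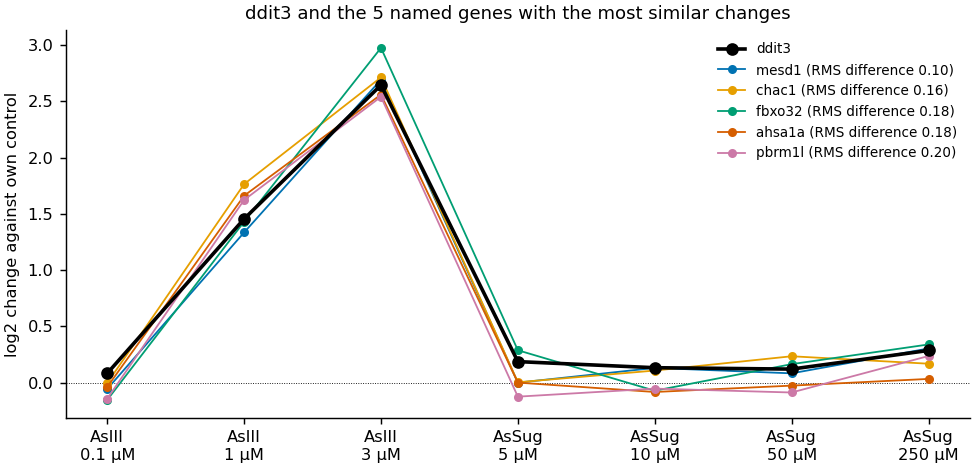
log2 change against the own control in the 7 exposed groups for ddit3 (thick black line) and the 5 genes with a symbol whose changes were most like it. All 6 lines lie between 1.34 and 1.76 at 1 µM arsenite and between 2.54 and 2.98 at 3 µM, and between -0.15 and 0.34 in the other groups.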

How the data were processed

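Per the submitters' processing notes the authors used HISAT2, featureCounts (Subread) and DESeq2 1.40.2; genome build, annotation and strand setting are not stated in the sources. What the authors deposited is a signal: gene read counts divided by 1 size factor per library, from which whole reads were recovered within 0.1. Names came from RefSeq (Ssal_v3.1), where 18900 of 18901 GeneIDs matched. log2(value + 1) was tested with limma 3.58.1 (mean trend) in R 4.3.3, with fish as a term, for genes at 10 or more in at least 6 libraries, and Benjamini-Hochberg adjustment over all genes. Fold changes on this scale understate those of low genes. All 4 AsIII groups entered 1 fit, the AsSug control with 5 to 50 µM another, and 250 µM was fitted with its control. Samples were paired because the labels name the fish: median correlations of deviations were 0.233, 0.367 and 0.0982 within a fish in these fits and -0.0435, -0.075 and -0.0331 between fish. Alternatives were library totals, edgeR 4.0.16 (TMM and quasi-likelihood) and DESeq2 1.42.0 on recovered reads, pseudocounts of 0.5 and 5, no filter, a filter of 50, no fish term, a fit of only the groups compared, and each fish left out. ddit3, the lists, and the rule for naming were chosen with earlier results of these data known. Genes were named if called with large sizes or next to CHOP in role. Intervals of counts cover counting error only.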

Additional observations from a re-analysis of the deposited data

Results flagged for a closer look

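Among 64 groups of 6 values examined for ddit3 and its companion genes, 3 held a value far from the other 5 by Dixon's test, and chance alone flags about 1 in 20 such groups. All 3 came from fish 6. The change of ddit3 between the control plates, AsIII control against AsSug control, was -0.37 on the log2 scale in fish 6, where the other 5 fish lay between 0.01 and 0.10. The level of chac1 at 50 µM arsenosugar was 2017 normalised reads in fish 6 and 1176 to 1259 in the others. The level of dctn2 in the AsSug control was 566 normalised reads in fish 6 and 651 to 695 in the others.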

How the results depend on the processing

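The rises of ddit3 at 1 and 3 µM arsenite kept their direction and call under all 16 alternatives each, at 1.43 to 1.53 and 2.53 to 2.67 on the log2 scale, as did the steps from 0.1 to 1 µM (1.32 to 1.55) and from 1 to 3 µM (1.00 to 1.24). Without the replicate block (no fish term) these calls also stood. At 5, 10 and 50 µM arsenosugar ddit3 was not called under any alternative (0.15 to 0.22, 0.08 to 0.19 and 0.09 to 0.14). With library totals ddit3 at 0.1 µM arsenite turned to -0.0231 (adjusted p = 0.906), ddit3 at 250 µM arsenosugar became called at 0.59, and 1 neighbouring pair of groups in place of 2 did not overlap. These totals shifted the median of all genes to -0.11 and 0.09. Leaving out 1 fish at a time gave -0.0275 to 0.0668 for the control pair, positive only without fish 6, and 0.16 (without fish 5) to 0.42 (without fish 2) at 250 µM. For the other named genes 1519 of 1534 values kept their direction and call. bcl2l11 at 3 µM arsenite turned to -0.0030 with library totals and -0.0057 without replicate 2, and atf4 between 1 and 3 µM turned to -0.0809 with library totals. xbp1 at 1 µM became called with library totals (0.26), without fish 1 (0.23) and without fish 5 (0.26), eif2ak3 and ern2 at 1 µM without fish 1, and chac1 at 250 µM with library totals (0.47). fn1a at 1 µM lost its call without fish 4 (0.52). Library totals gave 3494 genes higher and 6823 lower from 1 to 3 µM, against 5247 and 4612, and 6450 and 4916 at 250 µM, against 5000 and 6846. Counts of called genes moved by more than 1.5 times in the comparisons with few calls: at 0.1 µM arsenite 2 genes became 0 with library totals, TMM or edgeR and 13 with DESeq2. At 5 µM arsenosugar 20 became 34 with DESeq2, at 10 µM 3 became 11 with library totals and 14 with DESeq2, and at 50 µM 106 became 34 in a fit of only the groups compared. Without the replicate block those 3 counts and the 11 of the control pair became 0. With 1 fish left out they ran over 7 to 38, 2 to 15, 31 to 178 and 3 to 17, and ddit3 was called in none of these fits. Depth limits ddit3 most at 250 µM arsenosugar, where fish 2 had 30 reads. Beyond the scaling itself, the cause of these changes was not tested.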
